A study of Mus musculus with 8 samples.

Results

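CTCF binding was described at 10 circadian clock genes of mouse cortical neurons, Per1, Per2, Per3, Cry1, Cry2, Clock, Nr1d1, Nr1d2, Rora and Rorb, out of 21887 protein-coding genes in the RefSeq gene table. The genes were taken as named members of the clock, and each gene span was widened by 20 kb on both sides. Every region of the authors' CTCF lists whose summit fell in such a window was used, which gave 38 of the 33815 control regions and 46 of the 36186 NMDA regions on the assembled chromosomes. CTCF is a zinc finger DNA-binding protein that, with cohesin, anchors chromatin loops, and its binding was read from ChIP-seq, the sequencing of DNA that was pulled down with the protein. The cells were primary cortical neurons of wild-type Swiss-Webster embryos at embryonic day 16, taken on day 13 in vitro. Control cultures had no treatment in the labels, and stimulated cultures received 50 µM NMDA, an agonist of glutamate receptors, for 10 minutes with a recovery of 50 minutes in medium free of it. Each condition had 2 ChIP samples, called biological replicates, and 2 input samples (8 samples in 4 groups), and a growth note common to all samples names the topoisomerase inhibitor etoposide, which no label assigns to a sample. The lists hold no expression values, so the labelled cell type could not be checked against marker genes.

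The clock is a feedback loop of transcription. CLOCK, paired with BMAL1, activates the Per and Cry genes through E-box sequences, and the PER and CRY proteins return to the nucleus and inhibit that pair. A side loop is formed by the ROR activators (Rora, Rorb) and the REV-ERB repressors (Nr1d1, Nr1d2), which compete for the same element, among others in the gene for BMAL1. Per1 is also known as a gene whose transcription rises quickly after neuronal stimulation, and Rorb as a gene of layer 4 neurons in the cortex.

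A CTCF region was present at all 10 clock genes in both conditions. Regions were called shared where those of the 2 lists had 1 bp or more in common, and this held for every one of the 38 control regions. No region was control-only (0 of 38, which allows a share of up to 7.89% by 3 counts and of up to 9.18% by the 95% Wilson interval), where 9.22% of all control regions were control-only. Of the 46 NMDA regions 8 were NMDA-only, or 17.4% (95% Wilson interval 9.09 to 30.7), close to the 15.5% of all NMDA regions. These 8 lay at 5 genes, with 3 at Per2, 2 at Rora and 1 each at Per1, Cry1 and Rorb, while Per3, Cry2, Clock, Nr1d1 and Nr1d2 had shared regions alone. Among all protein-coding genes with the same flanks 71.8% had a shared region, 26.7% an NMDA-only region and 16.3% a control-only region.

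Each condition enters as 1 list built by the authors over both replicates, so the spread between replicates was not available for a comparison of conditions, and no test was made. Intervals and limits cover counting error only, neighbouring regions are not independent, and the read depth is unknown. The strength of a region is the authors' −log10 p, and its rank is its place in its own list by that value, with 1 as the strongest. The −log10 p depends on depth and had a median of 166 among control and 90.9 among NMDA regions, so levels and ranks of the 2 lists stand side by side here and show no change by themselves. The NMDA list also gives the −log10 p of each replicate in a first and a second replicate column, whose sum is the value of the region. With lists restricted to an IDR score of at least 830, the control-only share at the clock genes was 2 of 32 (6.25%, against 5.61% of all control regions), and with the NMDA list limited to as many regions as the control list the NMDA-only share was 3 of 40 (7.50%, against 11.7%). The genes with NMDA-only regions changed too. At that score Rora had 3, Per1, Clock and Nr1d2 had 1 each, and the other genes had 0. Of these, only 1 inside Rora (chr9:68956835-68957584) was NMDA-only in the full lists. The others overlapped a control region that scored under 830, with 737 at the first start of Per1, 684 at Clock, 618 at Nr1d2 and 541 and 670 at Rora. The NMDA-only region at the second start of Per1 scored 600 and was dropped.

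**Figure D1:**
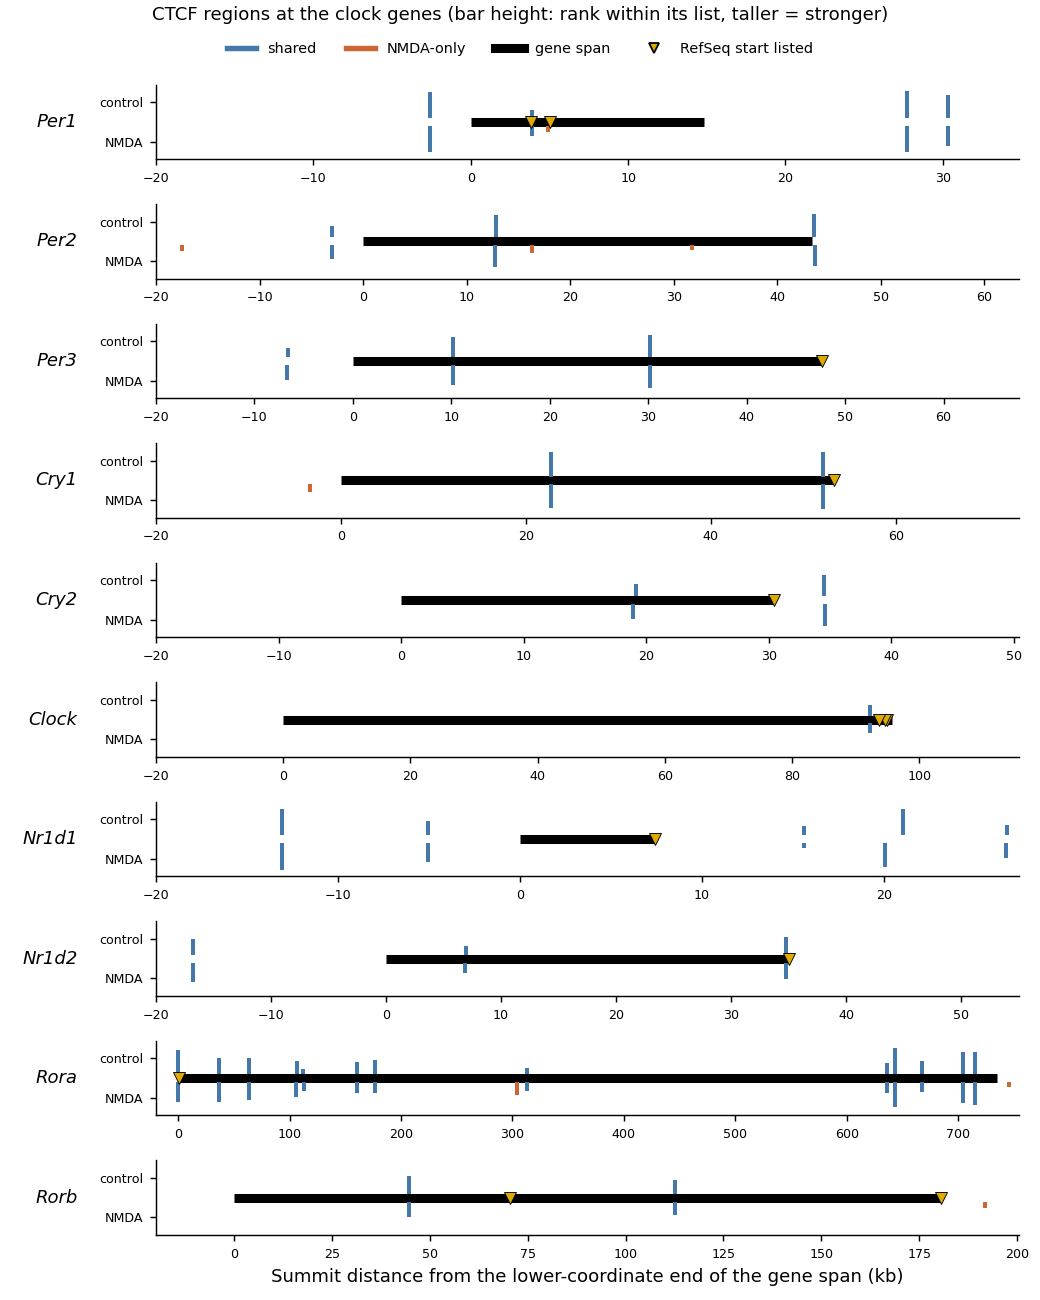
CTCF regions at the 10 clock genes. Each panel shows the gene span (black), the transcription starts that the promoter table lists (triangles) and the region summits by their distance in kb from the lower-coordinate end of the span, with control regions above and NMDA regions below the line and the bar height giving the rank within the list. All 38 control bars have an NMDA partner, and the 8 NMDA-only bars are short except for 1 inside Rora.

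The letters of 4 promoters are shown first, because these are the listed starts where a region covered the start and either a clock motif or the region's summit lay in the window. Of 13 transcription starts that RefSeq (GRCm38.p6, the assembly of mm10) lists for 9 of the genes, control regions covered 4 and NMDA regions 5. Over all 32851 listed starts these shares were 18.7% and 18.5%. The starts covered in both lists were the first start of Per1 and the starts of Cry1, Nr1d2 and Rora, and the start covered in the NMDA list alone was the second start of Per1. Of all 32851 listed starts, 1153 (3.51%) were covered in the NMDA list alone and 1204 in the control list alone. Each sequence gives the 250 bases before the start, 5′ to 3′ on the strand of the gene. In the first start of Per1 (chr11:69098699-69098948, plus strand) and in Cry1 (chr10:85185055-85185304, minus strand) the capitals mark the E-box CACGTG, and in the second start of Per1 (chr11:69099902-69100151, plus strand) and in Rora (chr9:68653536-68653785, plus strand) they mark the NMDA summit with 10 bases on either side.
Per1 first start: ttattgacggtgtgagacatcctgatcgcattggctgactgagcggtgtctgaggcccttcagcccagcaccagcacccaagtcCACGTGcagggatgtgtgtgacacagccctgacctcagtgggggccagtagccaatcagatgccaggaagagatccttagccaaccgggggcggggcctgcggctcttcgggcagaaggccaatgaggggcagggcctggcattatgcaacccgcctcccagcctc
Per1 second start: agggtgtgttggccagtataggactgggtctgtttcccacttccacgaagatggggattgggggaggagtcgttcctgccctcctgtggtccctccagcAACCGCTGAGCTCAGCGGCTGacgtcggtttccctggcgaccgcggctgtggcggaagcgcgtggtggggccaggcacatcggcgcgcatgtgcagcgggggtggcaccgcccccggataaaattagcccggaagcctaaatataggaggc
Cry1 start: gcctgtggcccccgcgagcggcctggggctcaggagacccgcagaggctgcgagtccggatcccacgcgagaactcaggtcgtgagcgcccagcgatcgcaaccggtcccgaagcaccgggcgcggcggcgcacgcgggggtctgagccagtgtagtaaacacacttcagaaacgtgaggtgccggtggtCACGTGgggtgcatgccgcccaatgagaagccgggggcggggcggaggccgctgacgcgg
Rora start: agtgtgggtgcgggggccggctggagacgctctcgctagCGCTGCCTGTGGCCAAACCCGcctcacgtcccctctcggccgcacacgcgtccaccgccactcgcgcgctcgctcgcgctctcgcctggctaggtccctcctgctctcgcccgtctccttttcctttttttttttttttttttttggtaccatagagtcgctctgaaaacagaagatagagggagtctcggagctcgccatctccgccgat

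A set of 4 motifs was sought on both strands of these 250 bases. The E-box CACGTG, the site of CLOCK and BMAL1, was found before 2 of the 13 starts, with its first base at -166 of the first Per1 start and at -60 of the Cry1 start, both within regions of both lists. It occurs in 6.02% of all listed promoters. The cAMP response element TGACGTCA (1.55% of promoters) and the core of the ROR element TAGGTCA (2.23%) were found before none of the 13. A core of the CTCF motif, spelled as CC, 3 free bases, AG, 2 free bases and GGC, was found before 1 of the 13 starts, that of Nr1d1, and in 7.17% of all promoters. At Nr1d1 it reads on the plus strand, opposite to the gene, with its first base in transcription order at -23 of the start. The stretch chr11:98775389-98775424 is printed along the minus strand, that of the gene, with the match in capitals: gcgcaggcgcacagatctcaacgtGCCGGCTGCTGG. No region of either list lay within the span of Nr1d1. A match is a description of the letters, and its absence says only that they are not in this window.

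Per1, an inhibitor gene of the loop, had 4 control and 5 NMDA regions in its window of 54.9 kb. The fifth NMDA region lay over the second of its 2 listed starts (chr11:69099665-69100240, 576 bp wide), with its summit 141 bp before that start. It was weak, with a −log10 p of 22.0 and rank 34764 of 36186, and had 8.05 in the first and 13.95 in the second replicate column. No control region overlapped it, and the nearest one ended 317 bp away. That nearest region is the shared one over the first start, 1203 bp upstream of the second (chr11:69098776-69099347 in the control list), which ranked 28855 of 33815 in the control list with a −log10 p of 59.4. Its NMDA partner ranked 27517 with 39.9, from 18.7 and 21.2 in the replicate columns, and the summits lay 28 bp apart. Both starts of Per1 thus carried weak regions, and with regions widened by 500 bp on each side the one at the second start became shared.

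**Figure D2:**
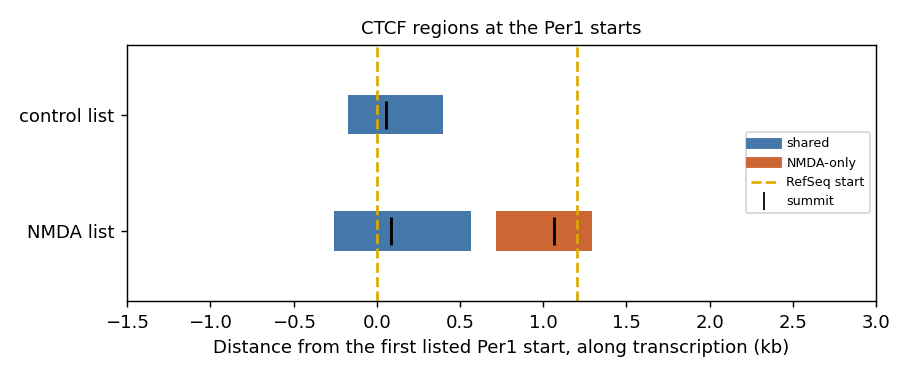
CTCF regions at the starts of Per1 in each list, as distance in kb from the first listed start along transcription. Bars span the regions, black ticks mark summits and dashed lines the RefSeq starts, with 1 region in the control list and 2 in the NMDA list.

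The strong regions of the Per1 window lay outside the gene. The strongest (chr11:69122152-69123679) stood at Hes7, a transcription factor gene of somite formation, and ranked 349 of 33815 in the control list and 1571 of 36186 in the NMDA list, with −log10 p of 1255 and 468. A further shared region at Vamp2, which encodes a synaptic vesicle protein, ranked 2674 and 2867 (chr11:69091714-69094321), with 182 and 189 in the NMDA replicate columns. The fourth lay at Aloxe3, a lipoxygenase gene, and ranked 6170 and 11579. All 3 were stronger in both lists than the regions at the starts of Per1.

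Per2, the second inhibitor gene, had the most NMDA-only regions of the 10 genes, 3 of its 6. Those inside the span had a −log10 p of 27.1 (chr1:91432073-91432611, replicate columns 13.18 and 13.95) and 18.7 (chr1:91447489-91448019, 9.02 and 9.65). The last lay 17.5 kb below the span at Ilkap, a phosphatase gene, with 21.6 (8.53 and 13.03). All 3 stood in the weakest part of the list, at ranks 32281, 36025 and 34944, and the replicate columns were low in each. None of them passed an IDR score of 830. With the NMDA list limited to the size of the control list, Per2, Cry1 and Rora had 1 NMDA-only region each.

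The shared regions of Per2 were stronger. A region across the upper end of the span (chr1:91458337-91460366) had a −log10 p of 390 in the control list (rank 5774) and 167 in the NMDA list (rank 10917), from 76.5 and 91.0 in the replicate columns. One inside the gene ranked 7441 and 8556. A weaker one at the neighbour Hes6, a transcription factor gene of neuronal differentiation, ranked 24526 and 22194. In each of the 3 pairs the summits lay at most 76 bp apart.

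Per3 had 3 shared regions and none at its listed start. The 2 inside the gene ranked 8675 and 11236 in the control list and 7409 and 11672 in the NMDA list. The third lay 6.63 kb below the span (chr4:150989998-150990881), away from any protein-coding gene by more than 1 kb, with a −log10 p of 64.3 in the control list and 83.3 in the NMDA list, from 27.6 and 55.7 in the replicate columns. Its rank, 27979 of 33815 in the control list and 19081 of 36186 in the NMDA list, differed most of all pairs at the clock genes towards a stronger place in the NMDA list.

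Cry1, a cryptochrome inhibitor gene, had the widest region of the 10 genes, with 4442 bp by control and 4287 bp by NMDA coordinates, across its start (chr10:85182877-85187318). The median region measured 1123 bp among all control and 1182 bp among all NMDA regions. This region ranked 4273 and 4934, with a −log10 p of 450 and 287, and the NMDA value came from 87.5 and 199 in the replicate columns. A second shared region inside Cry1 ranked 4330 and 6504, and its replicate columns held 57.4 and 188. The NMDA-only region lay 3.39 kb beyond the other end of the gene at Mterf2, a mitochondrial transcription factor gene, with a −log10 p of 27.4 (13.1 and 14.3). Both shared regions of Cry1 were thus among the stronger ones and differed over 2-fold between the replicate columns.

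Cry2, the other cryptochrome gene, had 2 shared regions and none over its listed start. One lay inside the gene (chr2:92422046-92423382) and ranked 23224 and 20028, with summits 226 bp apart, and the NMDA replicate columns had their own summits 178 bp apart. The other lay 4.10 kb above the span and ranked 9943 and 8828, with summits 17 bp apart.

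Clock, the activator gene, had a single region in each list in a window of 136 kb. It ranked 25075 of 33815 in the control list and 29256 of 36186 in the NMDA list (chr5:76301608-76302663), with a −log10 p of 82.9 and 34.8, the latter from 10.8 and 23.98 in the replicate columns. Its edge lay 838 bp (control) and 683 bp (NMDA) from the nearest of 3 listed starts, and the summits were 2 bp apart. At 0.737 regions per 100 kb in both lists Clock had the lowest density of the 10 genes, against a median of 2.22 in the control list and 2.35 in the NMDA list over all protein-coding genes with the same flanks. These medians are not matched for span length. Among 227 genes of at least 500 kb the median was 0.678 in both lists, but Clock spans 95.7 kb and is not matched by that class either.

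Nr1d1, which encodes the repressor REV-ERB alpha, had no region inside its span of 7.45 kb, yet its window had the highest density of the 10, 10.5 regions per 100 kb in both lists. Its span was the shortest of the 10, and densities were not matched for span length. All 5 of its regions were shared and lay in the flanks. The strongest stood at Thra, the thyroid hormone receptor gene that adjoins Nr1d1 (chr11:98754296-98755412), with ranks 1933 and 973, a −log10 p of 652 and 555 and 244 and 310 in the replicate columns. A second one at Thra ranked 19474 and 13918. On the other side a wide region (chr11:98785620-98789232) ranked 2773 and 5909, and its summits lay 943 bp apart in the 2 lists. The NMDA replicate columns placed their own summits 1912 bp apart there, further than the lists did. Close to it a weak region (chr11:98783179-98784198) ranked 27187 and 35386, with a −log10 p of 68.9 and 20.5, the latter from 7.58 and 12.96 in the replicate columns. The last, at Msl1, a gene of a histone acetyltransferase complex, overlapped a second control region beyond the window, and was left out of the one-to-one pairs below.

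Nr1d2, which encodes REV-ERB beta, had 3 shared regions. One covered the start (chr14:18238128-18239295), with a −log10 p of 190 in the control list and 98.9 in the NMDA list, from 26.2 and 72.7, and ranks of 15052 and 17137. A region inside the gene ranked 28042 and 26826, and one in the flank 18011 and 13289. The summits of the 3 pairs lay at most 37 bp apart.

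Rora, which encodes the activator ROR alpha, spans 735 kb and held 13 control and 15 NMDA regions in its window, the most of the 10 genes. Its density of 1.94 NMDA regions per 100 kb was above the upper quartile (1.10, median 0.678) of 227 protein-coding genes of at least 500 kb, a length class chosen after the values were seen. The regions stood in 2 groups. In the control list 8 lay within 313 kb of the lower-coordinate end of the span, 5 lay from 636 kb on, and the stretch of 323 kb between them, 44.0% of the span, held none in either list.

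The region over the start of Rora (chr9:68653089-68655462) had a −log10 p of 440 in the control list (rank 4465) and 153 in the NMDA list (rank 12048). The first replicate column held 97.2 and the second 55.4, although the second was the higher one in 37 of the 46 NMDA regions and in 79.4% of all. The summits of the lists lay 9 bp apart, 192 and 201 bp before the start. The strongest region inside the gene lay past the empty stretch (chr9:69295826-69297004), with a −log10 p of 567 and 317, ranks 2589 and 4035, and 76.6 and 240 in the replicate columns. The other 11 shared regions of Rora ranked from 7332 to 33799 in the control list and from 7043 to 30147 in the NMDA list.

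The NMDA-only region inside Rora was the strongest of the 8 (chr9:68956835-68957584), with a −log10 p of 58.2, rank 23074 and an IDR score at the ceiling of 1000. Its replicate columns held 23.2 and 35.0, and the nearest control region was 8.86 kb away. It alone of the 8 was above the median −log10 p of 28.5 of all NMDA-only regions. The second one lay 11.1 kb past the end of Rora at Ice2, with 18.5 (8.05 and 10.5) and rank 36094.

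By the counts of shared, control-only and NMDA-only regions, the genes most like Rora among 21886 others were Pknox2, with the same counts of 13, 0 and 2, then Arhgap26 and Cdh4, each with a summed difference of 1. The counts rest on 2 lists, and Pknox2 spans 256 kb, so its regions lay closer together.

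Rorb, the gene of ROR beta, had 2 shared regions inside its span of 181 kb and none at its 2 listed starts. They ranked 14248 and 20904 in the control list and 18797 and 23085 in the NMDA list. The second (chr19:19042873-19043939) had the largest ratio of the replicate columns among the 46, 9.41 against 48.7. An NMDA-only region of 462 bp lay 11.3 kb above the span, with a −log10 p of 23.4 (12.9 and 10.5), and the nearest control region was 78.3 kb away.

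The NMDA-only regions of the clock genes were weak and narrow as a group. Their median −log10 p was 22.7 and their median width 558 bp, against 28.5 and 742 bp for all 5616 NMDA-only regions. The lowest was 18.5 and the highest 58.2. Of the 8, 4 lay inside a gene and 4 in a flank, and 5 ranked below place 33815 of the NMDA list, which is the length of the control list. None of the 8 had a replicate column above 35.0. Over all 46 NMDA regions 12 differed over 2-fold between the replicate columns (28.8% of all NMDA regions do) and 3 over 3-fold (10.0%). The columns differ in level, with medians of 32.1 and 56.1 over all NMDA regions, and the ratios include that offset.

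**Figure D3:**
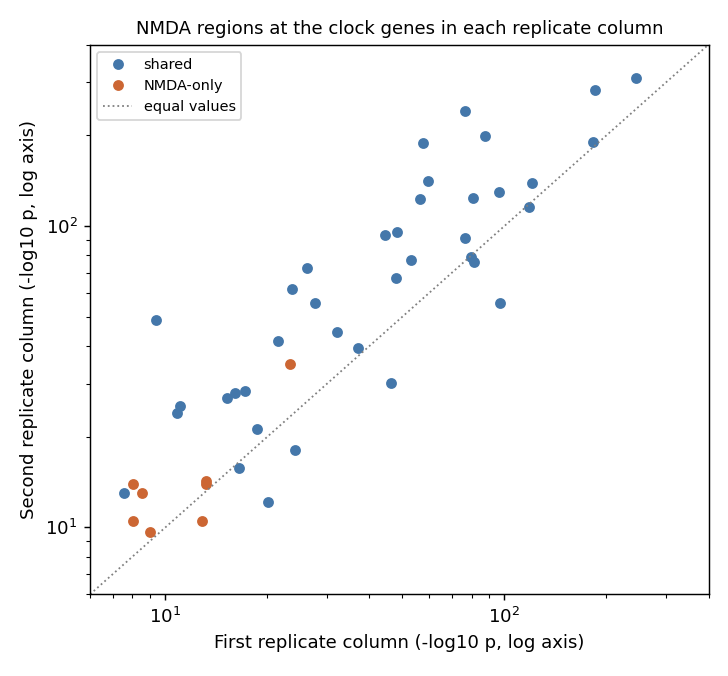
The 46 NMDA regions at the clock genes, as −log10 p in the first and the second replicate column, on log axes. Points above the dotted line were higher in the second column (37 of 46), and 7 of the 8 NMDA-only regions lie in the lower left corner.

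The ranks of paired regions were set side by side among the 29350 one-to-one pairs of the 2 lists, so that both ranks count the same regions. Of the 37 such pairs at the clock genes, 16 had a stronger and 21 a weaker rank in the NMDA list. The median difference was 2.08 points of 100 (quartiles -4.18 and 9.25), against -0.29 (-6.49 and 6.11) over all pairs. The replicate columns of the NMDA list differed from each other by a median of 9.19 points at these pairs, more than the lists did (7.03), and over all pairs these were 9.74 and 6.30. In 16 of 37 pairs the lists differed more than the replicate columns, against 37.0% of all pairs. A replicate column rests on a single replicate and a list on both, so these differences are not like for like. They do not show whether the lists differ beyond the spread of replicates.

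The start of Rora had the largest difference towards a weaker place, from 14.2% of the pairs in the control list to 39.0% in the NMDA list, or 24.8 points. By the first replicate column it stood at 20.5% and by the second at 59.2%, so that the columns differed by 38.7 points. The region below Per3 had the largest difference the other way, from 88.3% to 62.0%, with 64.2% and 58.8% in the replicate columns. Here the columns lay close together and both stood apart from the control rank. Differences at least this large in the same direction occurred in 1.91% of all pairs for Rora and 0.709% for Per3, and both were picked as the extremes of 37. Of the 13 pairs at Rora, 5 had a weaker place in the NMDA list by both replicate columns, 4 a stronger place by both, and 4 a control rank between the columns. Over the 37 pairs these counts were 14, 13 and 10, and over all pairs 27.5% were weaker by both, 32.3% stronger by both and 40.2% between.

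**Figure D4:**
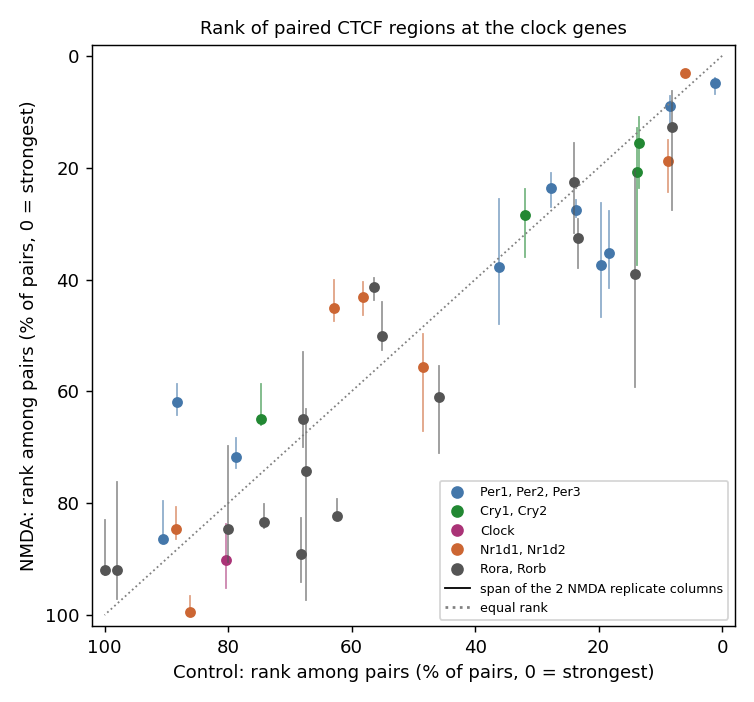
Rank of the 37 one-to-one pairs at the clock genes among 29350 pairs, in percent with 0 as the strongest, in the control list (x axis) and the NMDA list (y axis). Vertical lines run between the ranks by the 2 NMDA replicate columns, and the longest of them is at the start of Rora.

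Summits of shared regions lay in nearly the same place in both conditions. Over the 38 pairs the median distance was 19.5 bp (lowest 1, highest 943), against 18 bp over all 31099 overlapping pairs. It was at most 50 bp in 33 of 38, and in 83.6% of all pairs. The distance was over 100 bp at 2 pairs, inside Cry2 and beside Nr1d1. The summits of the NMDA replicate columns lay a median of 36.5 bp apart in these regions, and in 24 of 38 they were further apart than the summits of the lists (64.0% of all pairs). Here too single replicates stand beside lists built over both.

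**Figure D5:**
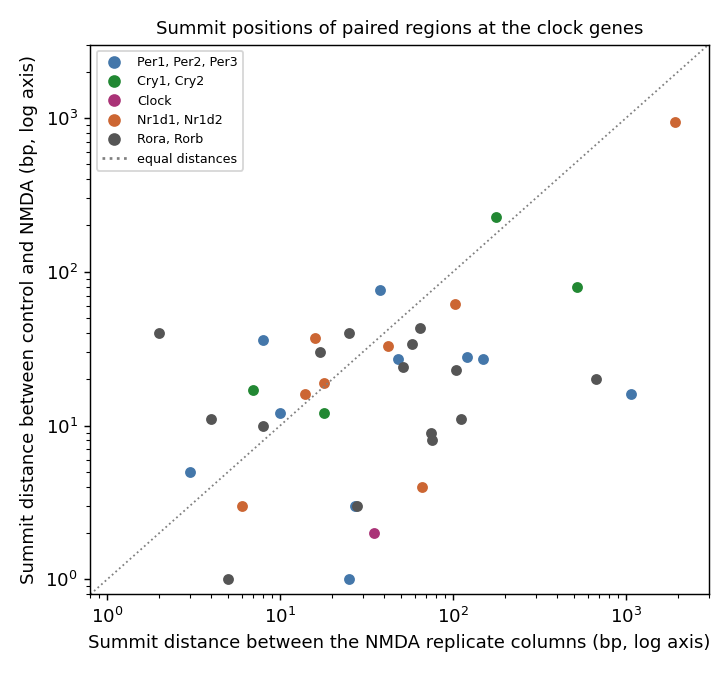
Summit distances in bp of the 38 pairs, between the NMDA replicate columns (x axis) and between the control and NMDA lists (y axis), on log axes. Points below the dotted line had replicate columns further apart than the lists, and the highest point, at 943 bp, is the wide region beside Nr1d1.

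Another 20 genes of the clock, a list drawn up with earlier results of these data known, held 60 control and 66 NMDA regions with the same flanks. Of these 7 control regions were control-only (11.7%, interval 5.77 to 22.2) and 11 NMDA regions NMDA-only (16.7%, 9.57 to 27.4), against 9.22% and 15.5% over the lists. The difference from the 0 of 38 control regions at the 10 genes was not tested. Arntl, which encodes BMAL1, had 5 shared regions and 1 NMDA-only region inside the gene (chr7:113258226-113258967, −log10 p 60.8, rank 22590 of 36186, replicate columns 18.7 and 42.1). Npas2, a relative of Clock, had 6 shared regions and a control-only region in the gene with 96.4 (chr1:39206585-39207442, rank 23354 of 33815).

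Control-only regions of this list lay at gene ends in a few cases. At Tef, a PAR bZIP factor gene, one covered a listed start (chr15:81802558-81803216, −log10 p 48.4, rank 31023 of 33815). An NMDA-only region lay 6.32 kb below the span of Tef with 40.1, at rank 27460 of 36186, a stronger place in its list. At Csnk1d, the gene of a kinase that acts on PER proteins, the single control region was control-only (chr11:120990658-120991488, 68.4, rank 27292), and the NMDA list had none in the window. Ciart, a repressor gene named after its values were seen, also had a control-only region at its end, with 43.3 (chr3:95881580-95882226, rank 32074). Unlike at Csnk1d, the NMDA list had a region close by (chr3:95882290-95883830), which was shared with another control region. Among NMDA-only regions elsewhere the −log10 p was 48.4 and 26.8 in Btrc (ranks 25200 and 32437). It was 45.1 and 21.1 beside Csnk1e (ranks 25997 and 35168) and 30.8 in Hlf (rank 30691). With 7 shared regions Btrc, a ubiquitin ligase gene, had the most of the 20.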

How the data were processed

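CTCF ChIP-seq lists of control and NMDA neurons were used, 1 per condition. The submitters' processing notes name MACS2, BWA, SAMtools, Trimmomatic and FastQC, without versions or settings, and the builds mm10 and GRCm38.p6. By their names the lists come from IDR, a method that retains regions with reproducible ranks between replicates. The −log10 p-value of each region is the authors' deposited value. For all 36186 NMDA regions that value was the sum of 2 replicate columns (tolerance 0.001); which replicate each column is, is not stated, and the control list has no such columns. The deposited IDR score ran from 540 to a ceiling of 1000. The −log10 values grow with depth, which is unknown, so the lists were compared only by rank, within a list or among the one-to-one pairs. Within the NMDA list the replicate columns were also compared by ratio. The inputs were not analysed here.

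Regions off the assembled chromosomes (5 control, 7 NMDA) were dropped. Class was set by an overlap of 1 bp, position by the summit. Gene spans and promoter letters came from RefSeq tables of GRCm38.p6, which hold no promoter for Per2. A gene end means within 1 kb, and exons and introns were not used here. Steps ran in Python 3.11.15 with numpy 2.4.6 and scipy 1.17.1. On simulated lists, with 3000 of 33815 control regions removed, 100% of kept regions were called shared. Kept regions were shifted by less than the width of the narrowest region, so this outcome was fixed in advance. It checks the matching step alone. The members and lists were chosen with earlier results of these data known. All 10 members are named, with neighbours within 1 kb of a region. Of the other clock genes, those with the strongest list-only regions (at most 8) and the 3 with the most shared regions are named. One gene that this rule names is not reported here. Alternatives changed the overlap, score, list size, flank, placement and ranked column.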

Additional observations from a re-analysis of the deposited data

How the results depend on the processing

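Over 40 recomputed values, 36 stayed within the counting interval of the reported value or within 1.5 times of a count. None reversed by that rule, which did not compare a share with that of the whole list. The control-only share, below the whole-list share as reported, was above it at a score of at least 830 (6.25% against 5.61%). The NMDA-only share was above the whole-list share as reported. It fell below with a reciprocal overlap of 50%, that score, equal list sizes, no flank or a flank of 10 kb. Under the other alternatives it stayed above. Keeping only the strongest 33815 NMDA regions, the size of the control list, the NMDA-only share at the clock genes became 7.50%. Without a flank 25 NMDA regions were shared and 3 members had a list-only region, and with a flank of 50 kb 9 members had one. Control-only regions numbered 0 of 38 as reported, and from 0 to 2 under the alternatives. A shared pair inside Cry2 and the wide one beside Nr1d1 were lost when summits had to lie within 100 bp. Under a reciprocal overlap of 50% a different pair of the Nr1d1 window was lost, the one at Msl1. Ranking by column 7 was not run, since that column holds the value -1 in every region of both lists. No paired analysis was possible because each list was built over both replicates and no test was made. Leaving out a replicate was likewise not possible. Depth is unknown, and regions absent from a list may lie under its threshold.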
